A study of Mus musculus with 8 samples.

Results

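A set of 10 genes that write, read or anchor methylation of lysine 9 of histone H3 (H3K9) was followed in the mRNA of mouse primordial germ cells with and without Prmt5. They are the H3K9 methyltransferase genes Setdb1, Ehmt1, Ehmt2, Suv39h1 and Suv39h2, the corepressor gene Trim28, the heterochromatin protein 1 (HP1) genes Cbx1, Cbx3 and Cbx5, and the remodeller gene Atrx. They were taken by name, with no threshold on their values but with earlier results of these data known, and are 10 of 21444 genes with a count. The 4 Prmt5 KO libraries came from embryos with the genotype Blimp1Cre;Prmt5flox/flox and the 4 Control libraries from Blimp1Cre;Prmt5flox/+ embryos, so that both groups carry Cre under Blimp1 and the Control keeps 1 unfloxed copy of Prmt5. All embryos were at embryonic day 11.5, on a mixed C57BL/6 and 129 background, and carried the dPE_Oct4 GFP reporter by which the germ cells were sorted. A PicoPure kit was used to isolate the RNA, 50 pg of which went into a library by a published protocol for sequencing by SOLiD. Blimp1Cre acts in germ cell precursors, and the floxed exons of Prmt5 are not given in the labels. Whether a group's libraries stem from different embryos is not stated, so p-values measure only the spread between libraries, part of which may be technical.

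Methylated H3K9 marks silent chromatin. SETDB1 is brought to retrotransposons by TRIM28 (also called KAP1), which itself is brought there by zinc finger proteins; EHMT2 (G9a) and EHMT1 (GLP) work as a pair that places the dimethyl mark in euchromatin; SUV39H1 and SUV39H2 place the trimethyl mark at pericentric repeats. The HP1 proteins bind the methylated lysine through their chromodomain, and ATRX, with its partner DAXX, deposits the histone variant H3.3 at repeats and telomeres. In mouse primordial germ cells the dimethyl mark is known to decline over the days in which DNA methylation is also erased. PRMT5, the enzyme lost here, places symmetric dimethyl marks on arginines of histones and of splicing factors. The comparison asks whether the transcripts of the H3K9 machinery differ between Prmt5 KO and Control germ cells at embryonic day 11.5.

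The 3 HP1 genes are close relatives, and Cbx3 has near-identical pseudogene copies elsewhere in the genome, shown here because its counts were close to 0. Shown are 60 coding bases of the chromodomain region, 5′ to 3′, from the GENCODE release M21 transcripts (GRCm38), with capitals for bases that differ from Cbx3. They are coding bases 133 to 192 of Cbx3 (chromosome 6), 106 to 165 of Cbx1 (chromosome 11) and 103 to 162 of Cbx5 (chromosome 15), beside the processed pseudogenes Cbx3-ps7 (chromosome 1) and Cbx3-ps1 (chromosome 13).
Cbx3: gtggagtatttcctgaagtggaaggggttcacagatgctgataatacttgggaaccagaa
Cbx3-ps7: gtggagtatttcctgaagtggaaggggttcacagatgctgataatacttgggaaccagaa
Cbx3-ps1: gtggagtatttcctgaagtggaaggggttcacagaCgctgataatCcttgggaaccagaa
Cbx1: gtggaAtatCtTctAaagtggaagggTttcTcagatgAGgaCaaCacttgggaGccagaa
Cbx5: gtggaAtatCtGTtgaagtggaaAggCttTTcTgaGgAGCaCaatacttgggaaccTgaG
Over this stretch Cbx3-ps7 had 0 differences from Cbx3 and Cbx3-ps1 had 2, while Cbx1 had 11 and Cbx5 had 16. Cbx1 and Cbx5 differed from each other at 13 of the 60 bases.

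The total of gene counts was between 4318974 and 6549498 in Prmt5 KO libraries and between 1811433 and 5844437 in Control libraries, with Control 2 and 3 the shallowest. Levels are given as CPM, counts scaled to library size, with library sizes adjusted by the TMM method. On a plot of the distances between libraries, Prmt5 KO 4 stood apart along the first dimension (-2.69, against 0.21 to 0.86 for the other 7) and Prmt5 KO 1 along the second (-2.26). All 12 primordial germ cell markers reached 10 CPM in at least 1 library, and their sum was 3111 to 3617 CPM in Prmt5 KO and 3125 to 3446 CPM in Control. The summed somatic gonad and mesonephros markers, of which 12 of 16 reached 10 CPM, were at 816 CPM in Prmt5 KO 1, 192 to 222 CPM in the other Prmt5 KO libraries and 149 to 254 CPM in Control. Mfge8 was the highest of them in every other library, but in Prmt5 KO 1 Acta2 was at 208 CPM and Mfge8 at 177 CPM, while Acta2 was at 2.71 to 7.13 CPM in the other 7. Of 7 endothelial markers 3 reached 10 CPM, led by Pecam1, which germ cells also express (sum 296 to 395 CPM in Prmt5 KO, 279 to 360 CPM in Control). Tek, hidden in this sum, was at 72.4, 12.2, 53.7 and 71.0 CPM in Prmt5 KO 1 to 4, against 28.9, 4.46, 7.68 and 8.09 CPM in Control 1 to 4. Egfl7 leaned the other way, at 1.74 to 7.09 CPM in Prmt5 KO and 5.49 to 18.8 CPM in Control. Of 8 blood markers 1 reached 10 CPM, Csf1r (sum 6.98 to 43.8 CPM in Prmt5 KO, 20.96 to 43.1 CPM in Control), and the globin genes Hba-a1 and Hbb-bt were at 0. Mitochondrial genes held 9.01% to 11.3% of counts in Prmt5 KO and 9.74% to 11.5% in Control. The targeted gene, Prmt5, was at 39.9, 40.5, 35.3 and 26.4 CPM in Prmt5 KO 1 to 4, against 89.4, 171, 172 and 118 CPM in Control 1 to 4. It fell by 1.95 on the log2 scale (standard error 0.272, edgeR adjusted p = 0.0388), a call that was lost when any library but Control 1 was left out (adjusted p 0.0578 to 0.233).

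None of the H3K9 genes passed an adjusted p of 0.05. Of the 10 genes, 9 had enough counts to be tested and 0 were called by edgeR's quasi-likelihood test, where 0.0273% of the 10990 genes tested were called. With an unadjusted p under 0.05 there was 1 of 9, Cbx1, beside 8.15% of all genes. Cbx1 was also the only one of the 9 whose Prmt5 KO libraries all lay below all Control libraries, as they did for 2.27% of all genes. The fitted log2 fold changes were above 0 for 6 of the 9 genes and below 0 for 3 (52.7% and 47.3% of all genes), with a median of 0.04 beside 0.03 over all genes tested. Together the 10 genes held 0.210% to 0.232% of the gene counts in Prmt5 KO libraries and 0.210% to 0.264% in Control libraries. In sorted bulk RNA, fewer cells of a type and less RNA per cell cannot be told apart.

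**Figure D1:**
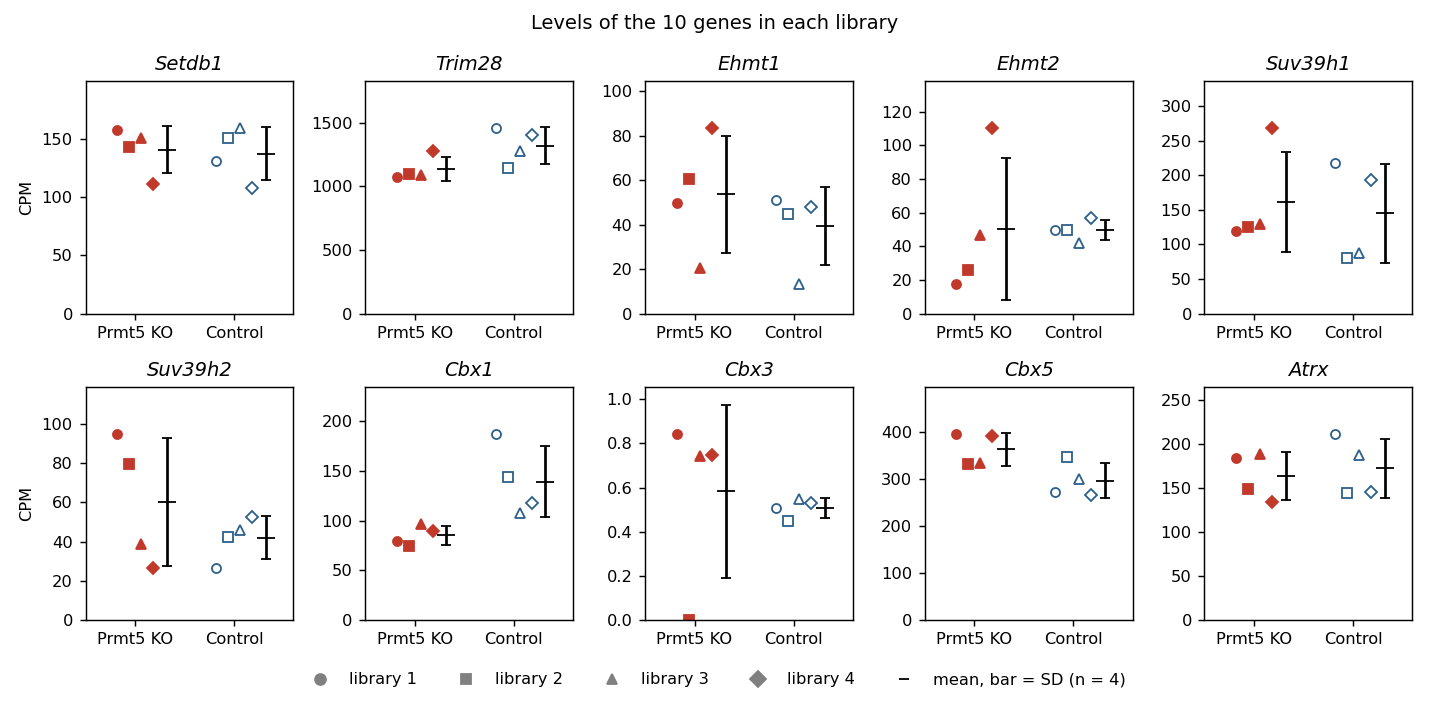
CPM of each of the 10 genes in the 4 Prmt5 KO (filled, left) and 4 Control (open, right) libraries, with symbols by library number and the mean and SD in black (n = 4 each). Cbx1 is the only tested gene whose groups do not overlap (74.4 to 96.7 CPM in Prmt5 KO, 108 to 187 CPM in Control). Prmt5 KO 4 is the highest library for Ehmt2, whose spread is wide in Prmt5 KO only, and for Suv39h1, whose spread is wide in both groups.

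**Figure D2:**
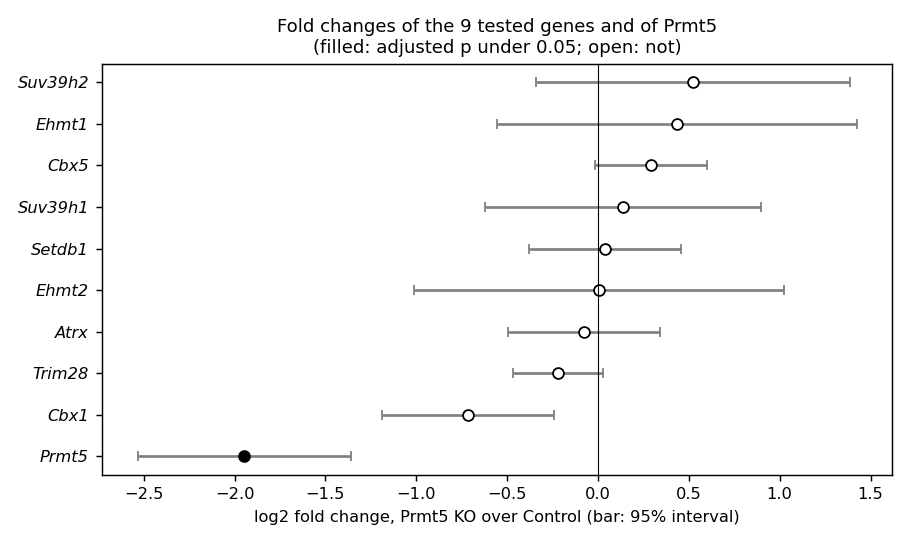
Log2 fold change of Prmt5 KO over Control with its 95% interval (horizontal axis) for the 9 tested genes and Prmt5 (rows), from edgeR. Only Prmt5 (-1.95) is filled for an adjusted p under 0.05. The interval of Cbx1 (-1.19 to -0.24) lies below 0, and those of the other 8 H3K9 genes include 0.

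The methyltransferase that works with TRIM28, Setdb1 (ENSMUSG00000015697, chromosome 3, 95323525 to 95357202, minus strand, coordinates here and below on GRCm38), had overlapping values in the groups. It was at 157, 143, 151 and 111 CPM in Prmt5 KO 1 to 4, against 131, 151, 160 and 108 CPM in Control 1 to 4. The lowest library of each group was its replicate 4, and the ranges overlapped almost fully. Its log2 fold change was 0.04 with a 95% interval of -0.38 to 0.46 (edgeR adjusted p = 0.982). Its sign turned when Control 4 (-0.064) or Prmt5 KO 1 (-0.02) was left out. The counted transcript, Setdb1-204, is annotated as a retained intron form that spans all 21 exons, and 75 of its 5652 bases overlap the gene Cers2 on the other strand. Reads of opposite genes cannot be told apart where the strand setting is not given.

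The G9a and GLP pair spread widely between libraries. Ehmt1 (ENSMUSG00000036893, chromosome 2, 24789928 to 24919614, minus strand), which encodes GLP, was at 49.6, 60.5, 20.7 and 83.7 CPM in Prmt5 KO 1 to 4, against 51.2, 44.6, 13.2 and 48.2 CPM in Control 1 to 4. Replicate 3 was the lowest library in both groups. Its log2 fold change was 0.43, with an interval of -0.56 to 1.42 (edgeR adjusted p = 0.858). Single libraries moved it, to 0.13 without Prmt5 KO 4, 0.16 without Control 3 and 0.71 without Prmt5 KO 3, and with both Prmt5 KO 1 and 4 left out it was 0.02. Ehmt2 (ENSMUSG00000013787, chromosome 17, 34898469 to 34914052, plus strand), which encodes G9a, was at 17.4, 25.8, 46.7 and 111 CPM in Prmt5 KO 1 to 4, against 49.7, 50.0, 42.2 and 56.8 CPM in Control 1 to 4. Prmt5 KO 1 and 2 lay below every Control library and Prmt5 KO 4 above every one, so the coefficient of variation was 84.2% in Prmt5 KO and 12.0% in Control. The means were nearly equal, at 50.1 ± 42.2 CPM in Prmt5 KO and 49.7 ± 5.95 CPM in Control (SD, n = 4 each), and the log2 fold change was 0.01 (-1.01 to 1.02, edgeR adjusted p = 0.9997). Without Prmt5 KO 4 it was -0.73 (adjusted p = 0.581), without Control 3 it was -0.06, without Prmt5 KO 1 and 4 it was -0.45, and limma voom on all 8 libraries gave -0.47. The ratio of Ehmt1 to Ehmt2 counts was 0.443 to 2.85 in Prmt5 KO and 0.312 to 1.03 in Control, and the groups overlapped.

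The genes of the pericentric enzymes also spread widely within each group. Suv39h1 (ENSMUSG00000039231, chromosome X, 8061171 to 8074760, minus strand) stood at 120, 126, 129 and 269 CPM in Prmt5 KO 1 to 4, against 218, 80.4, 87.8 and 194 CPM in Control 1 to 4. Prmt5 KO 4, Control 1 and Control 4 were high and the other 5 libraries low, so the groups overlapped. A log2 fold change of 0.14 (-0.62 to 0.90, edgeR adjusted p = 0.965) was fitted, and it was below 0 without Prmt5 KO 4 (-0.23), Control 2 (-0.06) or Control 3 (-0.04). Suv39h2 (ENSMUSG00000026646, chromosome 2, 3455815 to 3475031, minus strand) stood at 95.1, 79.8, 38.5 and 26.7 CPM in Prmt5 KO 1 to 4, against 26.7, 42.4, 46.1 and 52.4 CPM in Control 1 to 4. Prmt5 KO 1 and 2 were above every Control library, Prmt5 KO 3 lay within the Control range, and Prmt5 KO 4 was level with the lowest Control library. Its log2 fold change of 0.52 (-0.34 to 1.39) did not pass (edgeR adjusted p = 0.788), and was 0.21 without Prmt5 KO 1, the library with the high somatic marker sum, and 0.77 without Prmt5 KO 4. The ratio of Suv39h1 to Suv39h2 counts ran from 1.26 to 10.1 in Prmt5 KO and from 1.89 to 8.17 in Control. Of the counted Suv39h2 transcript, 357 bases (8.25%) overlap Dclre1c on the other strand, and 767 bases of the counted Suv39h1 transcript overlap the antisense gene Gm14820, which had a count of 0. Suv39h1 and Atrx lie on the X chromosome, and the Y-linked genes Ddx3y, Eif2s3y and Uty were at most at 0.893 CPM in any library, and Xist, which is transcribed from an inactive X chromosome, was at 1.10 to 8.95 CPM.

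Trim28 (ENSMUSG00000005566, chromosome 7, 12999114 to 13031035, plus strand), the scaffold that joins zinc finger proteins to SETDB1 and HP1, was by far the most abundant of the 10. It was at 1071, 1099, 1089 and 1278 CPM in Prmt5 KO 1 to 4, against 1461, 1140, 1276 and 1403 CPM in Control 1 to 4. All 4 Prmt5 KO libraries were below the Control mean, but Prmt5 KO 4 exceeded Control 2 and 3, so the groups overlapped. The means were 1134 ± 96.7 CPM in Prmt5 KO and 1320 ± 143 CPM in Control (SD, n = 4 each). Its log2 fold change of -0.22 had an interval of -0.47 to 0.03 and did not pass (edgeR unadjusted p = 0.0791, adjusted p = 0.671). With Control 2 and 3 left out it was -0.33 (adjusted p = 0.811). With 45958 counts over the 8 libraries, Trim28 had the narrowest interval of the 9 tested genes. Its 9 tested transcripts, 8 of them short retained intron forms that share reads with the full one, had log2 fold changes of -0.37 to -0.12.

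Among the HP1 genes, Cbx1 was lower in Prmt5 KO and the counted Cbx5 transcript, Cbx5-202, somewhat higher, and neither passed the test. Cbx1 (ENSMUSG00000018666, chromosome 11, 96789127 to 96808640, plus strand), which encodes HP1 beta, was at 79.7, 74.4, 96.7 and 89.2 CPM in Prmt5 KO 1 to 4, against 187, 144, 108 and 118 CPM in Control 1 to 4. The 4 Prmt5 KO libraries were close together and all below the lowest Control library, Control 3, while Control 1 was the highest. The means were 85.0 ± 9.92 CPM in Prmt5 KO and 139 ± 35.5 CPM in Control (SD, n = 4 each). The log2 fold change of -0.71 (standard error 0.220, interval -1.19 to -0.24) had an unadjusted p of 0.00623 and an adjusted p of 0.409 in edgeR. It kept its sign in all 17 alternatives, between -0.84 and -0.54, with an adjusted p between 0.126 and 0.809. Without Prmt5 KO 1, the library with the high somatic marker sum, it was -0.68, and without Prmt5 KO 1 and 4 it was -0.70. Since the groups did not overlap, leaving out libraries could hardly turn the sign, and the other alternatives refit the same libraries. The kept sign is therefore no added support.

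Cbx5 (ENSMUSG00000009575, chromosome 15, 103191544 to 103239816, minus strand), which encodes HP1 alpha, was at 397, 332, 334 and 391.6 CPM in Prmt5 KO 1 to 4, against 273, 347, 300 and 267 CPM in Control 1 to 4. Every Prmt5 KO library exceeded Control 1, 3 and 4, and only Control 2 lay within the Prmt5 KO range. The means were 364 ± 35.4 CPM in Prmt5 KO and 297 ± 36.6 CPM in Control (SD, n = 4 each). The log2 fold change of 0.29 (-0.01 to 0.60) had an unadjusted p of 0.0597 and an adjusted p of 0.632 in edgeR, and was 0.17 with Prmt5 KO 1 and 4 left out. The balance of Cbx1 to Cbx5, which does not depend on library scaling, was a ratio of counts of 0.201, 0.224, 0.289 and 0.228 in Prmt5 KO 1 to 4, against 0.687, 0.414, 0.361 and 0.442 in Control 1 to 4. These groups did not overlap, with means of 0.236 ± 0.0378 in Prmt5 KO and 0.476 ± 0.145 in Control (SD, n = 4 each). The ratio was formed with the values of both genes known, and no test is given for it. Since Cbx1 by itself already separated the groups, the separated ratio is not a result apart from that of Cbx1. How often ratios of other gene pairs separate the groups was not computed.

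The third HP1 gene, Cbx3 (ENSMUSG00000029836, chromosome 6, 51470360 to 51483704, plus strand), which encodes HP1 gamma, was almost without counts. It had 5, 0, 5 and 3 counts in Prmt5 KO 1 to 4, against 3, 1, 1 and 3 counts in Control 1 to 4. That is at most 0.844 CPM in any library, and the gene did not reach the minimum for a test. The deposited counts for Cbx1 and Cbx5 over the 8 libraries were 4162 and 12334, and for Cbx3 they were 21. As the stretch printed above shows for 60 bases, Cbx3 shares long runs with its pseudogenes. By blastn, 13 other annotated genes, 11 of them processed pseudogenes, matched at least 50 bases of Cbx3-201 at 90% identity or more. They covered all 549 coding bases and 33.2% of the 1889 bases of the transcript, and 28.9% of its 50-base words occurred unchanged in another gene. Those 13 genes together held 12 counts, 7 of them on Cbx3-ps7. How reads that match several places were counted is not stated by the labels, and the part of such reads in the low Cbx3 count was not tested. For Cbx1, the pseudogene Gm7128, which had 0 counts, matched 538 of the 2377 bases of the counted transcript at up to 93.8% identity, and Hltf, with 2817 counts, matched 64 bases at up to 90.8%. Of the 35-base words of that transcript 0.854% occurred in another gene, and of its 50-base words 0.

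Atrx (ENSMUSG00000031229, chromosome X, 105797615 to 105929403, minus strand), the remodeller gene, stood at 183, 148, 188 and 133 CPM in Prmt5 KO 1 to 4, against 211, 144, 188 and 145 CPM in Control 1 to 4. The ranges of the groups overlapped. Its log2 fold change was -0.07 (-0.49 to 0.34, edgeR adjusted p = 0.966), and its sign turned without Control 1 (0.042), without Prmt5 KO 4 (0.01) or with transcripts summed (0.11).

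The short Atrx transcripts set Prmt5 KO 4 apart. The full transcript, Atrx-202, has 35 exons, and 6 tested transcripts lie within its exons 1 to 9. In Prmt5 KO 4, where Atrx-202 was lowest at 133 CPM, 5 of these short transcripts (Atrx-201, Atrx-209, Atrx-210, Atrx-217 and Atrx-218) were at 14.7 to 30.4 CPM, against 0.298 to 6.86 CPM in the other 7 libraries. That was 11.03% to 22.8% of the Atrx-202 count in Prmt5 KO 4 and 0.158% to 4.73% in the other 7. The sixth, Atrx-206, was at 23.5, 12.4, 14.9 and 24.4 CPM in Prmt5 KO 1 to 4, against 20.6, 9.82, 10.97 and 19.2 CPM in Control 1 to 4. It too was highest in Prmt5 KO 4, but in CPM only just above Prmt5 KO 1. As a percent of the Atrx-202 count it was at 18.3% in Prmt5 KO 4 and at 5.85% to 13.2% in the other 7. The transcripts overlap and may share reads, so they are not separate measurements. Since 1 library carries it, the pattern is not a difference between the groups, and the edgeR adjusted p of the 5 was 0.729 to 0.814.

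**Figure D3:**
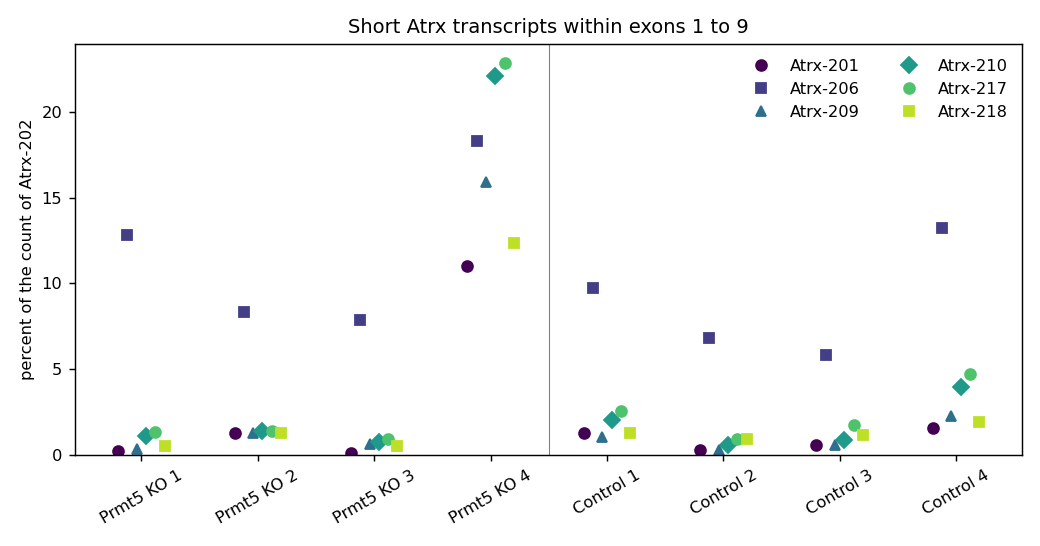
Count of 6 short Atrx transcripts as a percent of the count of the full transcript Atrx-202 (vertical axis) in each library, Prmt5 KO left and Control right of the line. In Prmt5 KO 4 they reach 11.03% to 22.8%, while in the other 7 libraries all but Atrx-206 stay at or below 4.73%.

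No single transcript was called either. Of 101 annotated transcripts of the 10 genes, 85 had a count and 59 were tested, and 0 of these passed an adjusted p of 0.05, beside 0.00284% of the 35248 transcripts tested. An unadjusted p under 0.05 was found for 6 of the 59, beside 8.12% of all transcripts: the 5 transcripts of Cbx1 and Cbx5-202. The 5 Cbx1 transcripts were also the only ones of the 59 with Prmt5 KO libraries all below Control libraries, beside 2.45% of all transcripts. They share exons and reads, so these are not 5 independent results. Cbx1-203, the coding transcript with all 5 exons, was at 55.2, 51.4, 69.8 and 64.6 CPM in Prmt5 KO 1 to 4, against 141, 114, 82.3 and 89.2 CPM in Control 1 to 4. Its log2 fold change was -0.79 (edgeR adjusted p = 0.384). Cbx1-204, annotated as a target of nonsense-mediated decay and the transcript with the highest count, had -0.68 (adjusted p = 0.402), and Cbx1-205, a retained intron form of exons 1 to 2, had -0.89 (adjusted p = 0.506). Coding, decay and retained intron forms of Cbx1 thus lay on the same side. Cbx5-202, the long transcript with all 5 exons, had a log2 fold change of 0.33 (edgeR adjusted p = 0.598). The shorter coding transcripts Cbx5-201 and Cbx5-203, which start in exon 2 of it, had 0.01 and 0.15. Cbx5-204, with 135 counts over all libraries, had 0.92 (edgeR adjusted p = 0.828).

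Compared per kilobase of the counted transcript, the level of Trim28 was 378 CPM per kilobase over the 8 libraries and lay above every other gene in all 8. Suv39h1 (54.5), Cbx1 (47.2) and Cbx5 (37.5 CPM per kilobase) followed with overlapping ranges, so their order is not settled. In Prmt5 KO the mean level of Cbx1 was 35.8 CPM per kilobase and that of Cbx5 41.3, while in Control they were 58.6 and 33.7. This turn of order depends on the counted transcripts, Cbx1-204 (2377 bases) and Cbx5-202 (8803 bases). The coding transcripts Cbx1-203 (1251 bases) and Cbx5-203 (1146 bases) were at 60.2 and 34.6 CPM in Prmt5 KO. In Control they were at 107 and 32.0 CPM, so Cbx1-203 was the higher in both groups. After Cbx5 came Setdb1 at 24.6 CPM per kilobase, above Atrx (16.3) in all 8 libraries. Ehmt2 (12.4), Suv39h2 (11.8) and Ehmt1 (9.93 CPM per kilobase) overlapped one another. Cbx3 was last at 0.289 CPM per kilobase. With the mean length of a gene's annotated transcripts in place of the counted one, Atrx came second at 98.6 CPM per kilobase and Trim28 was at 1215, since many short transcripts are annotated for both.

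**Figure D4:**
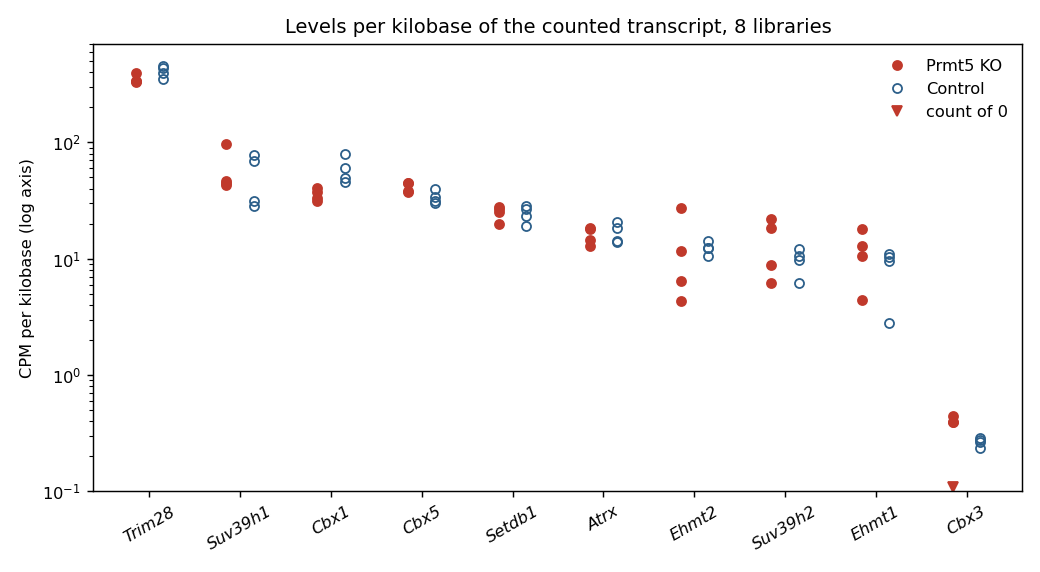
CPM per kilobase of the counted transcript on a log axis for the 10 genes, with 1 point per library (Prmt5 KO filled and left, Control open and right of each gene). Trim28 lies at 330 to 450 CPM per kilobase in all 8 libraries and Cbx3 at or below 0.447, with the count of 0 in Prmt5 KO 2 drawn at the lower edge.

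The promoters of the 10 genes, 250 bases before to 50 bases after each of 14 RefSeq starts (GRCm38.p6), held 8 to 40 CG dinucleotides. The median over 27025 promoters, the first listed start of each gene symbol whether expressed here or not, was 7. All 14 starts of the 10 genes exceeded it. Expressed genes alone were not compared. The Ehmt2 promoter at its second listed start had the most, with a GC content of 82.7%, and 3.80% of all promoters had as many. The second start of Cbx5 had the fewest, and 49.0% of all promoters had as many. Promoter methylation was not measured in these libraries.

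Genes that act beside the 10 were listed in 5 groups of 49 genes in all. Of these 42 were tested, 0 were called, beside 0.0273% of all genes, and 1, Kdm3b, had an unadjusted p under 0.05, beside 8.15%. Log2 fold changes were above 0 for 26 of the 42 and below 0 for 16, beside 52.7% and 47.3% of all genes, with a median of 0.07 beside 0.03. The genes whose fold changes are given in each group are those with the smallest unadjusted p, with H3f3b added beside H3f3a.

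Of 4 other H3K9 methyltransferase genes only Prdm2 could be tested, with a log2 fold change of -0.40 (edgeR adjusted p = 0.879), and Setdb2, Mecom and Prdm16 had too few counts. Prdm2 was at 107 CPM in Prmt5 KO 1 and at 18.2 to 33.1 CPM in the other 3 Prmt5 KO libraries, against 41.5 to 87.0 CPM in Control. Without Prmt5 KO 1 its log2 fold change was -1.18 (edgeR adjusted p = 0.396), and it was between -0.26 and -0.13 when Control 1 or Prmt5 KO 2, 3 or 4 was left out. Of 5 cofactor genes, 4 were above 0 and 1 below, with a median of 0.19. Atf7ip, whose protein stabilises SETDB1, was at 85.1, 70.9, 76.5 and 56.8 CPM in Prmt5 KO 1 to 4, against 62.0, 54.5, 47.2 and 35.4 CPM in Control 1 to 4. Only Prmt5 KO 4 lay below the highest Control library, and the log2 fold change of 0.54 (edgeR adjusted p = 0.641) did not pass. Zfp644, whose protein joins the G9a and GLP complex, had 1.17 (adjusted p = 0.756) at levels of at most 7.09 CPM.

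Of 11 H3K9 demethylase genes 9 were tested, 7 above 0 and 2 below, with a median of 0.24, and Kdm4d and Phf2 were not tested. The pair of related enzymes Kdm3a and Kdm3b lay on opposite sides. Kdm3b was at 83.6, 53.3, 94.9 and 51.3 CPM in Prmt5 KO 1 to 4, against 136, 112, 117 and 86.2 CPM in Control 1 to 4. Prmt5 KO 3 alone exceeded the lowest Control library, and the log2 fold change was -0.67 (edgeR unadjusted p = 0.0228, adjusted p = 0.537). Kdm3a was at 190, 215, 142 and 181 CPM in Prmt5 KO 1 to 4, against 195, 118, 121 and 111 CPM in Control 1 to 4. Control 1 was far above the other 3 Control libraries, and the log2 fold change was 0.41 (adjusted p = 0.672), with 0.64 (adjusted p = 0.525) when Control 1 was left out and 0.25 when Control 2 and 3 were.

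Of 14 genes for partners of KAP1 and for the HUSH complex, which silences integrated retroelements through H3K9 methylation, 12 were tested, 7 above 0 and 5 below, with a median of 0.16. Zfp57 and Trim66 were not tested. Hdac1, a histone deacetylase gene, had a log2 fold change of 0.37 (edgeR adjusted p = 0.654) and 0.22 without Prmt5 KO 4, but 61.9% of the 35-base words of its transcript occur in other genes, so its counts are uncertain. Chd3, the remodeller gene whose protein binds KAP1, was at 2.03, 19.8, 10.3 and 6.73 CPM in Prmt5 KO 1 to 4, against 12.7, 20.5, 25.2 and 31.5 CPM in Control 1 to 4, with a log2 fold change of -1.21 (adjusted p = 0.663) and -0.58 with Prmt5 KO 1 and 4 left out. All 15 genes for HP1 and ATRX partners were tested, 8 above 0 and 7 below, with a median of 0.05. H3f3a, which encodes the H3.3 variant that ATRX and DAXX deposit, was at 228, 249, 220 and 228 CPM in Prmt5 KO 1 to 4, against 172, 219, 160 and 194 CPM in Control 1 to 4. Its groups did not overlap, as 2.63% of all genes did in this direction, but the closest values, Prmt5 KO 3 and Control 2, nearly met. It had a log2 fold change of 0.31 (edgeR adjusted p = 0.647), and 0.15 with transcripts summed. Its counts are uncertain, since 31.3% of its 35-base words occur in other genes and 638 bases (22.5%) of its transcript overlap Gm17275 on the other strand, which had 8141 counts against 7924 for H3f3a. H3f3b, which also encodes H3.3 and was more abundant than H3f3a, lay on the other side of 0. Its mean was 711 CPM in Prmt5 KO and 775 CPM in Control, the groups overlapped, and its log2 fold change was -0.13 (edgeR adjusted p = 0.847). The H3f3a values alone therefore do not show a higher level of H3.3 mRNA. Pogz, whose protein binds HP1, had 0.34 (adjusted p = 0.771), with 0.20 when Prmt5 KO 1 was left out and 0.11 when Prmt5 KO 1 and 4 were.

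**Figure D5:**
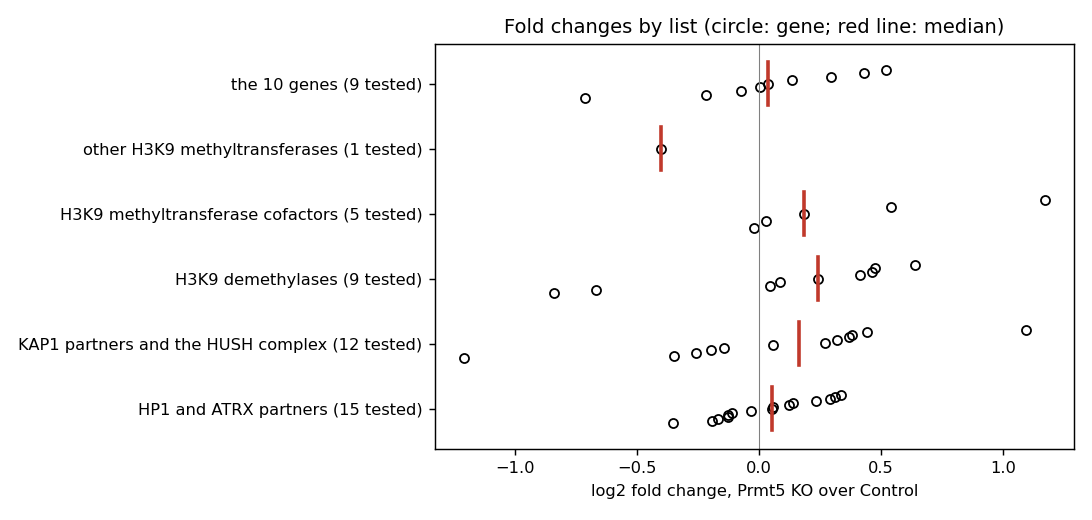
Log2 fold change of Prmt5 KO over Control (horizontal axis) for each tested gene (circles) of the 10 H3K9 genes and of 5 lists of related genes (rows), with the median as a red line. None of the circles passed an adjusted p of 0.05, and the medians of the lists with more than 1 tested gene lie between 0.04 and 0.24.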

How the data were processed

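For each of 8 libraries the authors deposited a file of read counts per transcript, all whole numbers. GRCm38 and mm10 are the builds in the submitters' processing notes. No source used here names the aligner, the counter, the annotation or the strand setting. Of 66262 transcript identifiers, 64258 (97.0%) matched GENCODE M21, and the rest, with 1.75% to 1.90% of a library's counts, were left out. Because transcripts of a gene share reads, a gene took the count of whichever transcript had its highest total. The fits, planned for gene counts, were also made on transcripts.

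Genes were filtered with filterByExpr (minimum count 10, minimum total 15), scaled by TMM and compared with edgeR's quasi-likelihood test (robust), with Benjamini-Hochberg adjustment over all genes or transcripts at 0.05; intervals are 95%. The code was tested on simulated data. Replicate numbers are shared between the groups, but no label says that they mark a litter or day, so no pairing was assumed. Named are all 10 genes, Prmt5, the called genes of each list or else those with the smallest unadjusted p (at most 2 a list), the 3 transcripts with the smallest unadjusted p and the leading marker of other cell types. Other names were chosen after their values were seen. The members and lists were chosen with earlier results of these data known. Alternatives covered scaling, filter, tool, block, left-out libraries, robust estimation and the gene value. Tools were edgeR 4.0.16, DESeq2 1.42.0 and limma 3.58.1 in R 4.3.3, blastn 2.17.0 and matplotlib 3.10.9. The spread between libraries (common biological coefficient of variation 0.488) limits what can be called.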

Additional observations from a re-analysis of the deposited data

Results flagged for a closer look

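Of 78 sets of 4 values searched, 12 held a library far from the other 3 of its group. Chance alone flags about 1 in 20 groups (3.9 of 78) where the sets are separate and chosen without regard to their values. Here overlapping short Atrx transcripts, named after their values were seen, were among the sets and the flags. The 12 flags can therefore not be weighed against 3.9, and no excess over chance is claimed. In Prmt5 KO 4, Trim28 was at 1278 CPM (1071 to 1099 in the other 3 Prmt5 KO libraries) and Suv39h1 at 269 CPM (120 to 129). In the same library the short transcripts Atrx-201, Atrx-209, Atrx-210, Atrx-217 and Atrx-218 were at 14.7, 21.2, 29.4, 30.4 and 16.4 CPM, beside at most 2.53 CPM in the other 3. These transcripts overlap and are not separate flags. In Prmt5 KO 1, Prdm2 was at 107 CPM (18.2 to 33.1 in the other 3) and the summed somatic gonad and mesonephros markers at 816 CPM (192 to 222). In Prmt5 KO 2, Cbx3 was at 0 CPM, which at this depth is a gap of a few counts. In Control 1, Kdm3a was at 195 CPM (111 to 121 in the other 3) and Cbx1-205 at 48.5 CPM (32.0 to 33.9).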

How the results depend on the processing

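None of the 9 tested genes was called in any of the 17 alternatives, and Cbx1, Cbx5, Trim28, Ehmt1 and Suv39h2 kept their direction in all 17, though between 0.025 and 0.71 for Ehmt1 and between 0.21 and 0.77 for Suv39h2. For Cbx1, whose groups did not overlap, leaving out libraries could hardly turn it. With single libraries left out, log2 fold changes ran from -0.73 to 0.29 for Ehmt2 (below 0 without Control 3, -0.062, or Prmt5 KO 4), from -0.23 to 0.40 for Suv39h1 (below 0 without Control 2, -0.056, Control 3, -0.037, or Prmt5 KO 4), from -0.15 to 0.042 for Atrx (above 0 without Control 1 or, at 0.012, Prmt5 KO 4) and from -0.064 to 0.14 for Setdb1 (below 0 without Control 4 or, at -0.020, Prmt5 KO 1). Leaving out Control 2 and 3 gave -0.084 for Ehmt2 and -0.35 for Suv39h1, leaving out Prmt5 KO 1 and 4 gave -0.45 and -0.20, and limma voom gave -0.47 and -0.090. Summing transcripts gave 0.11 for Atrx. The cause was not tested. The 3 genes called became 7 with no filter, 107 in DESeq2, 1 in limma voom, 1 with summed transcripts, 1 to 2 with single libraries left out, 1 with Prmt5 KO 1 and 4 removed, and 0 with Control 2 and 3 removed. The call of Prmt5 itself was lost in 12 of the 17. The 1 transcript called became 38 with no filter, 395 in DESeq2, 1 to 5 with single libraries left out and 0 without Control 2 and 3. With the replicate number as a block, 1 gene was called and Ehmt2 was at -0.34. The deviations of same-numbered libraries had low correlations (0.0016 to 0.069). Even so, Prmt5 KO 1, 2 and 4 correlated best with the Control library of their own number, and Prmt5 KO 3 with Control 1. Whether the numbers mark a pairing is therefore not settled. Levels per kilobase moved by more than 1 SD with the other length for 8 of the 10 genes. Cbx3, with 21 counts, allows no statement on a difference.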

Other observations

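The libraries with high Suv39h1 also had the highest levels of the germ cell genes Ddx4 and Dazl, a likeness seen after the values were known and not tested. Ddx4, an RNA helicase gene of maturing germ cells, was at 267 CPM in Prmt5 KO 4, 222 CPM in Control 1 and 180 CPM in Control 4, and at 78.6 to 152 CPM elsewhere. Dazl, an RNA-binding protein gene of the same stage, was at 185 CPM in Prmt5 KO 4, 331 CPM in Control 1 and 237 CPM in Control 4, and at 56.2 to 163 CPM elsewhere. Ddx4 and Dazl were picked from the 12 primordial germ cell markers for this likeness, and the others did not share it. How many of all genes are highest in the same libraries was not computed. Among the others, Pou5f1 was at 374 CPM in Prmt5 KO 4 and 346 CPM in Control 4, but lowest of all libraries in Control 1, at 174 CPM. Sox2 was at 163 CPM in Prmt5 KO 4, 126 CPM in Control 1 and 131 CPM in Control 4, and at 156 to 206 CPM elsewhere. Nanog was at 172, 209 and 196 CPM in these libraries, and at 205 to 373 CPM elsewhere.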
